A study of Mus musculus with 12 samples.

Results

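The subject is 33 genes that control cholesterol in hepatocytes of the mouse, the cells that carry out most of the liver's metabolism: 19 enzymes of cholesterol synthesis, 4 genes that control the transcription factor SREBP2 or encode it, 3 genes of sterol transport inside the cell, 3 genes driven by the liver X receptors (LXR), the 2 receptors themselves and 2 enzymes of cholesterol esterification. They were taken from a written list and kept where at least 3 of the 12 libraries held at least 10 reads, a rule that all 33 met among 55487 listed gene identifiers. All 33 also passed the filter of the test, which covered 13535 genes. The libraries were RNA sequencing of primary hepatocytes from mouse liver, in 4 groups of 3. Control cells were untreated. The FAC group received FAC, an abbreviation left unexplained in the labels. Cells of the Lip-1+FAC group were pretreated with liproxstatin-1, a scavenger of lipid reactive oxygen species (ROS), and those of the MT+FAC group with Mito-TEMPO, a scavenger of mitochondrial ROS. Both pretreatments were given on day 2 of culture and were followed by FAC. No group received a scavenger without FAC, and the doses, the duration, and the strain, sex and age of the mice are not given in the sources used here. Since nothing says whether replicates came from separate mice or cultures, p-values measure the spread between these libraries, which may be technical.

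Hepatocytes make cholesterol from acetyl-CoA in a long chain of steps, take it up in lipoproteins and secrete it to bile and to plasma lipoproteins. SREBP2, encoded by Srebf2, is held in the endoplasmic reticulum by Scap and the Insig proteins when sterols are plentiful. When sterols fall, Scap escorts it to the Golgi, where proteases release the part that enters the nucleus and activates the genes of synthesis. Oxysterols, which accumulate when cholesterol is high, activate the LXR transcription factors, which switch on export pumps such as Abca1 and Abcg1 and the ubiquitin ligase Mylip, which degrades a lipoprotein receptor. The libraries were compared to see how synthesis genes and LXR-driven genes lay in the same 4 groups.

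Gene-assigned reads numbered 22991598 to 31683376 per library, apart from FAC replicate 2 with 52529278, whose file is marked as combined from an unstated source. All 10 listed hepatocyte markers were detected, with summed levels of 13460 to 14511 CPM (reads relative to the size of the library, with TMM factors applied) in control, 12994 to 13943 in FAC, 10689 to 11967 in Lip-1+FAC and 11139 to 12234 in MT+FAC libraries. Most of that sum was Alb (9625 ± 317.6 CPM in control and 9879 ± 468.6 in FAC, SD, n = 3), and single markers differed more between groups. Cps1 measured 1695 ± 221.4 CPM in control and 711.4 ± 146.2 in FAC libraries, Tat 71 ± 6.31 and 38.5 ± 3.42, and Pck1 20.6 ± 4.01 and 8.95 ± 2.48 (SD, n = 3). Cyp2e1 measured 334.9 ± 50.5 CPM in control, 449.4 ± 65.3 in FAC and 141.8 ± 13.1 in Lip-1+FAC libraries (SD, n = 3). Ttr, Asgr1 and Ass1 had control and FAC means closer together than their SD (1476 and 1513, 225.3 and 231.5, and 192.0 and 196.3 CPM). Of 10 macrophage markers 9 were detected, and their sum, 229.8 to 263.7 CPM in control and 294.4 to 328.0 in FAC libraries, was 123.1 to 181.4 over both scavenger groups. That sum was almost all Cd68. Without Cd68 it lay between 12.9 and 21.4 CPM in every library. All 5 bile duct cell markers were detected, at 58.6 to 68.9 CPM in control, 98.4 to 123.3 in FAC, 109.6 to 124.8 in Lip-1+FAC and 104.0 to 144.7 in MT+FAC libraries. That sum was mostly Spp1 and Sox9, which differed in layout: Spp1 had means of 40.7, 43.6, 101.4 and 102.6 CPM and Sox9 of 17.4, 53.4, 12 and 15.1, in the same order of groups. Krt19 followed Sox9, with means of 3.96, 9.96, 1.58 and 2.7 CPM. Of 8 stellate cell markers 6 were detected, with sums of 20.3 to 28.4 CPM in control, 30.0 to 38.6 in FAC, 14.4 to 17.4 in Lip-1+FAC and 15.9 to 21.0 in MT+FAC libraries. The higher FAC sum was carried by Reln (7.46 ± 1.55 CPM in control and 16.1 ± 0.139 in FAC, SD, n = 3) and Acta2 (9.12 ± 1.8 and 12.1 ± 3.82), whereas the means of Dcn, Col3a1, Col1a1, Pdgfrb and Lrat were lower in FAC. Of 7 endothelial markers 6 were detected, with sums of 34.8 to 36.6 CPM in control, 34.3 to 35.4 in FAC, 25.4 to 27.6 in Lip-1+FAC and 26.5 to 30.6 in MT+FAC libraries. Most of that sum was Stab2, with means of 28.2, 26.5, 17.9 and 19.2 CPM in the 4 groups in that order, whereas Pecam1 had means of 2.77, 2.63, 3.19 and 3.05. The lymphocyte markers Cd3e, Nkg7 and Ms4a1 were at 0 in every library, and the 5 lymphocyte markers together reached at most 0.432 CPM. The part of these marker differences in the results was not tested, and in such bulk RNA fewer cells of a type and less RNA per cell cannot be told apart.

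Synthesis genes were lower after FAC and were higher when either scavenger had been given first. In FAC against control, 14 of 19 synthesis genes fell and 1 rose, with a median log2 fold change of -0.51. Among all genes tested 19.1% were called lower and 17.5% higher in that comparison, with a median of -0.00613. In Lip-1+FAC against FAC, 17 of the 19 rose and 1 fell (median 0.93), against 20.7% of all genes called higher and 19.2% called lower. In MT+FAC against FAC, 14 rose and 2 fell (median 0.53), against 21.2% and 19.7% of all genes. Over the whole list of 33, 4 rose and 15 fell with FAC, 22 rose and 3 fell with Lip-1 before FAC, and 17 rose and 5 fell with MT before FAC. None of the 3 LXR-driven genes was called by edgeR or DESeq2 in these comparisons, and none had an unadjusted edgeR p under 0.05. Abcg1 and Mylip had 4 to 32 reads per library, and Abca1 passed with offsets for GC content and length, with FAC (-0.25, edgeR adjusted p = 0.0452) and with Lip-1 before FAC (-0.31, edgeR adjusted p = 0.0147), so these non-calls do not show that the LXR-driven genes differ from the synthesis genes. That difference was not tested. These 3 comparisons share the FAC libraries, so their counts are not independent of each other. Calls were made at an adjusted p under 0.05 by edgeR's quasi-likelihood test. Without the deep FAC replicate 2, 14 synthesis genes fell with FAC, 15 rose with Lip-1 and 13 rose with MT.

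A single value per library showed the same layout. Measured as the median over the 19 synthesis genes of log2 CPM minus the control mean, the control libraries lay at -0.05, -0.03 and 0.07 and the FAC libraries at -0.54, -0.57 and -0.36. The Lip-1+FAC libraries lay at 0.52, 0.39 and 0.44 and the MT+FAC libraries at 0.07, 0.00 and 0.13. No FAC library came near the other groups and no Lip-1+FAC library came down to them, whereas MT+FAC libraries overlapped with control. Of the 19 genes, 15 (78.9%) had their lowest group mean in FAC and their highest in Lip-1+FAC, an order that 11.4% of all genes tested shared. The exceptions were Fdps, Ggps1, Tm7sf2 and Ebp.

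**Figure D1:**
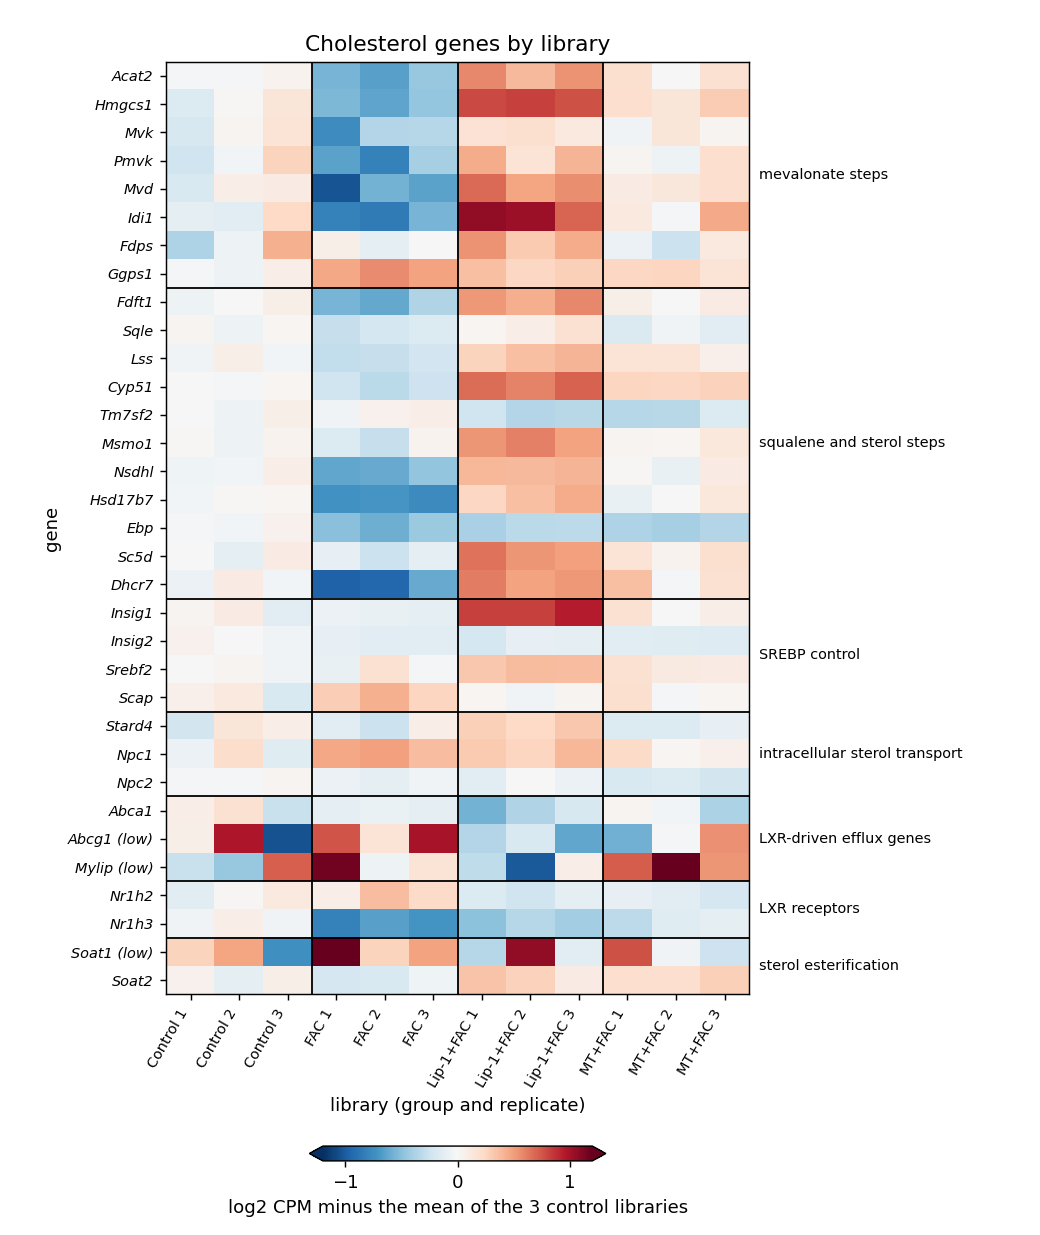
Level of the 33 genes (rows, grouped by role) in each of the 12 libraries (columns), as log2 CPM minus the mean of the 3 control libraries; red is higher and blue lower, and colours saturate beyond the ends of the scale. Most synthesis rows are blue in FAC and red in Lip-1+FAC libraries, while rows marked low rest on at most 32 reads per library and vary within groups.

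The mevalonate steps turn acetyl-CoA into the isoprenoid units from which sterols and other products are built. Of these 8 genes 6 fell and 1 rose with FAC, 7 rose with Lip-1 before FAC, and 6 rose and 1 fell with MT before FAC. Idi1, the isomerase that balances the C5 isoprenoid units, had the largest change with Lip-1. It measured 35.3, 35.0 and 45.0 CPM in control, 21.8, 21.1 and 26 in FAC, 80.0, 77.7 and 62.1 in Lip-1+FAC and 41.4, 37.9 and 52.4 in MT+FAC libraries. Every FAC library lay below, and every Lip-1+FAC library above, all libraries of the other groups, and the MT+FAC range overlapped that of control. Idi1 fell by 0.75 on the log2 scale with FAC (SE 0.144, edgeR adjusted p = 0.0011). It rose 3.2-fold with Lip-1 before FAC (log2 1.68, SE 0.143, edgeR adjusted p = 8.69e-07) and 1.91-fold with MT before FAC (log2 0.94, SE 0.143, edgeR adjusted p = 0.000178). Idi1 lies on chromosome 13 (GRCm38, 8885501 to 8892451, plus strand), and 684 bases of its transcript are identical to the pseudogene Gm13502, so reads from that stretch could be left uncounted.

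Hmgcs1, the synthase that makes HMG-CoA, lies on chromosome 13 as well (119690379 to 119708260, plus strand). Its libraries measured 193.1, 219.0 and 240.3 CPM in control, 149.1, 140.1 and 156.8 in FAC, 374.7, 382.5 and 367.7 in Lip-1+FAC, and 248.6, 239.1 and 266.8 in MT+FAC. The FAC libraries were the lowest and the Lip-1+FAC libraries the highest with no overlap, and 1 control library exceeded the lowest MT+FAC library. Hmgcs1 fell by 0.55 with FAC (log2, SE 0.0711, edgeR adjusted p = 1.06e-05), rose 2.52-fold with Lip-1 before FAC (log2 1.34, SE 0.0717) and 1.69-fold with MT before FAC (log2 0.76, SE 0.0711). An antisense gene, Gm48342, overlaps 12.1% of its exonic length, and the unstranded count kept 62.17% of the reads that the stranded columns together held. With the stranded columns summed, the log2 fold changes were -0.52, 1.34 and 0.79.

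Hmgcs1, with the third largest change with Lip-1, was picked for holding letters that SREBP2 is known to bind. Idi1, with the largest change, was added outside the plan. The promoters of both genes are printed. They span 250 bases before to 50 after the RefSeq start, 5′ to 3′ on the gene's strand (GRCm38.p6, chr13:119690101-119690400 for Hmgcs1 and chr13:8885356-8885655 for Idi1). Capitals mark a sterol regulatory element (TCACCCCAC) in Hmgcs1, and in Idi1 the CCAAT box, which lies on the opposite strand and is printed as ATTGG.
Hmgcs1: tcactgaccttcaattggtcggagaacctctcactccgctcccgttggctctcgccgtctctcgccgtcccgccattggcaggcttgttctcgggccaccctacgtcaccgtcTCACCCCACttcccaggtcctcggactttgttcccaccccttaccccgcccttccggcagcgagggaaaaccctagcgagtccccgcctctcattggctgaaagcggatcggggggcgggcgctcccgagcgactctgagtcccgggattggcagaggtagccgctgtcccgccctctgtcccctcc
Idi1: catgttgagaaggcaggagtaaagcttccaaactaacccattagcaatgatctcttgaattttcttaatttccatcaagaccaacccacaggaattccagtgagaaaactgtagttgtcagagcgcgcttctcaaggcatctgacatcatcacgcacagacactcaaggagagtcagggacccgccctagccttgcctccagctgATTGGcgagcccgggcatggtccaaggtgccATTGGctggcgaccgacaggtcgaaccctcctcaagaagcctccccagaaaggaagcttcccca
The element in Hmgcs1 begins at position -137 from the start. Idi1 holds no such match in this window and 2 CCAAT boxes. The Hmgcs1 promoter holds CCAAT boxes as well, which are not in capitals, so this box does not set the 2 promoters apart.

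Mvd, the decarboxylase that yields the first isoprenoid unit, measured 16.4, 19.6 and 19.8 CPM in control, 9.02, 12.5 and 11.9 in FAC, 29.6, 25.8 and 27.2 in Lip-1+FAC and 19.9, 20.4 and 21.3 in MT+FAC libraries. No FAC library overlapped with another group, and neither did a Lip-1+FAC library. Mvd fell by 0.74 with FAC (log2, SE 0.119, edgeR adjusted p = 0.0001) and rose by a log2 of 1.3 (SE 0.117) with Lip-1 and 0.88 (SE 0.118) with MT before FAC. Acat2, the cytosolic thiolase that opens the pathway, gave 81.1, 80.7 and 84.5 CPM in control, 55.9, 52.2 and 59.7 in FAC, 122.4, 107.2 and 119.6 in Lip-1+FAC and 93.6, 82.3 and 93.4 in MT+FAC libraries. Its FAC libraries were apart below and its Lip-1+FAC libraries apart above. Acat2 fell by 0.55 with FAC (log2, SE 0.0723, edgeR adjusted p = 1.15e-05) and rose by a log2 of 1.06 with Lip-1 and 0.68 with MT before FAC. Its transcript is 97.7% identical to Acat3 over 1477 bases, so the counts of the pair are uncertain.

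Pmvk, which adds the second phosphate to mevalonate, measured 14.9, 17.2 and 21.2 CPM in control, 11.3, 10 and 13.4 in FAC, 23.9, 19.7 and 23.3 in Lip-1+FAC and 18.0, 16.8 and 20.2 in MT+FAC libraries. Its FAC libraries were below all others, and the other groups overlapped in part. Pmvk fell by 0.63 with FAC (log2, SE 0.137, edgeR adjusted p = 0.0015) and rose by a log2 of 0.96 with Lip-1 and 0.67 with MT before FAC. Mvk, the kinase that adds the first phosphate, fell by 0.47 with FAC (log2, SE 0.114) and rose by 0.63 and 0.51 in the same comparisons. Fdps, which condenses the units into farnesyl diphosphate, was called only in Lip-1+FAC against FAC (log2 0.45, SE 0.159, edgeR adjusted p = 0.0315). That call was lost without FAC replicate 2, FAC replicate 3, Lip-1+FAC replicate 1 or Lip-1+FAC replicate 3, in turn (log2 0.40 to 0.47).

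Ggps1 moved the other way. It makes geranylgeranyl diphosphate, which is attached to proteins rather than carried on to sterols. Libraries measured 16.4, 16.0 and 17.6 CPM in control, 22.9, 24.6 and 23.3 in FAC, 21.3, 19.8 and 20.3 in Lip-1+FAC and 19.7, 19.8 and 18.6 in MT+FAC. The control libraries were the lowest and the FAC libraries the highest, without overlap. Ggps1 rose 1.42-fold with FAC (log2 0.51, SE 0.0858, edgeR adjusted p = 0.000163) and fell by 0.29 on the log2 scale with MT before FAC (SE 0.0847, edgeR adjusted p = 0.0121). Lip-1 before FAC gave a log2 fold change of -0.21 (SE 0.0847), which was not called (edgeR adjusted p = 0.0586). The fall with MT was lost without FAC replicate 2 (-0.25), without MT+FAC replicate 3 (-0.26) and with no filter beyond 1 count (-0.28). The Lip-1 value passed under a few other settings. Among them were DESeq2 (adjusted p = 0.0316) and offsets for GC content and length (-0.32, edgeR adjusted p = 0.00646). In the Ggps1 transcript, 903 bases are 97.2% identical to the pseudogene Gm5630.

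The squalene and sterol steps build the sterol ring and finish cholesterol. Of these 11 genes 8 fell with FAC, 10 rose and 1 fell with Lip-1 before FAC, and 8 rose and 1 fell with MT before FAC. Dhcr7, the reductase of one of the last steps, measured 59.5, 66.7 and 60.8 CPM in control, 31.8, 32.3 and 41.0 in FAC, 95.3, 86.8 and 89.1 in Lip-1+FAC and 79.7, 61.2 and 70.8 in MT+FAC libraries. Its FAC libraries were the lowest and its Lip-1+FAC libraries the highest of all, and the MT+FAC range spanned upwards from the control range. Dhcr7 fell with FAC to 0.56 of control (log2 -0.84, SE 0.103, edgeR adjusted p = 1.01e-05), the largest fall among the 33 genes. It rose 2.59-fold with Lip-1 (log2 1.37, SE 0.103) and 2.02-fold with MT (log2 1.01, SE 0.103) before FAC.

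Hsd17b7, a ketoreductase of the demethylation steps, gave 86.2, 89.4 and 89.6 CPM in control, 53.4, 54.1 and 52.0 in FAC, 104.9, 113.6 and 120.0 in Lip-1+FAC and 83.1, 88.8 and 96.5 in MT+FAC libraries. The FAC libraries were close together and far below, and the MT+FAC libraries lay on both sides of control. Hsd17b7 fell by 0.73 with FAC (log2, SE 0.0675, edgeR adjusted p = 2.36e-07) and rose by a log2 of 1.08 with Lip-1 and 0.75 with MT before FAC. Nsdhl, its partner dehydrogenase, measured 68.4, 69.5 and 74.9 CPM in control, 46.0, 46.7 and 51.2 in FAC, 93.6, 92.9 and 93.9 in Lip-1+FAC and 71.7, 66.6 and 75.9 in MT+FAC libraries. It showed the same layout, with FAC lowest, Lip-1+FAC highest, and MT+FAC overlapping with control. Nsdhl fell by 0.57 with FAC (log2, SE 0.0674, edgeR adjusted p = 4.44e-06) and rose by a log2 of 0.96 and 0.57.

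Fdft1, squalene synthase, commits farnesyl diphosphate to sterols. Its libraries measured 163.7, 169.5 and 178.5 CPM in control, 115.6, 111.2 and 132.5 in FAC, 245.1, 230.8 and 254.9 in Lip-1+FAC and 178.4, 171.0 and 182.3 in MT+FAC. Fdft1 fell by 0.51 with FAC (log2, SE 0.0664, edgeR adjusted p = 1.11e-05), rose by a log2 of 1.03 with Lip-1 and 0.57 with MT before FAC, and overlapped with control in the MT+FAC libraries. The antisense gene Ctsb overlaps 18.3% of its exonic length, and 1249 bases of its transcript are 97.4% identical to the pseudogene Gm6781. With the stranded columns summed, the log2 fold changes of Fdft1 were -0.44, 0.93 and 0.46. Sqle, Lss and Cyp51, which oxidise squalene, close the ring and remove a methyl group from it, fell by 0.22, 0.27 and 0.27 with FAC (log2), and Lss by 0.41 with offsets for GC content and length. With Lip-1 before FAC they rose by a log2 of 0.31, 0.61 and 0.93. With MT before FAC, Lss and Cyp51 rose by 0.39 and 0.53, and Sqle had a value of 0.10 (edgeR adjusted p = 0.159).

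Msmo1 and Sc5d, an oxidase and a desaturase of the later steps, did not pass the test in FAC against control (log2 -0.13 and -0.15, edgeR adjusted p = 0.167 and 0.0803). Msmo1 did pass without FAC replicate 3 (-0.22, edgeR adjusted p = 0.0112), and Sc5d did without control replicate 2 (-0.21, edgeR adjusted p = 0.0335). They rose with Lip-1 before FAC by a log2 of 0.67 (SE 0.07) and 0.71 (SE 0.0669), and with MT by 0.19 and 0.29. For Msmo1 the MT call was lost without each single FAC library except the third and without each MT+FAC library in turn, and its value was 0.12 without FAC replicate 2. The Msmo1 promoter (GRCm38.p6, chr8:64733529-64733828, minus strand) is printed because it holds a shorter form of the element, TCACNCCA, shown in capitals, at position -177.
Msmo1: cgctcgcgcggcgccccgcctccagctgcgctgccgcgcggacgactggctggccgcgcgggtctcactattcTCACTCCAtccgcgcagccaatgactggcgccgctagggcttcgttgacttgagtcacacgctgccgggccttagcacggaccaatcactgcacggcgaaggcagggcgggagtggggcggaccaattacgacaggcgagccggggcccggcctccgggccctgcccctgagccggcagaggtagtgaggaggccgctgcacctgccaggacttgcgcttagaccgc
That shorter form was chosen after the sequences had been seen.

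Ebp and Tm7sf2 departed from the rest. Ebp, the sterol isomerase, measured 120.2, 119.1 and 125.9 CPM in control, 86.0, 80.9 and 89.5 in FAC, 92.9, 97.3 and 97.7 in Lip-1+FAC and 94.3, 92.5 and 95.7 in MT+FAC libraries. All libraries given FAC, with or without a scavenger, were below every control library. Ebp fell by 0.51 with FAC (log2, SE 0.0572, edgeR adjusted p = 2.17e-06), and still lay below control with Lip-1 (log2 -0.34) and with MT (log2 -0.37, edgeR adjusted p = 0.000227). Its rise with Lip-1 before FAC (log2 0.17, edgeR adjusted p = 0.0265) was lost without FAC replicate 2 (0.13) and without Lip-1+FAC replicate 2 or replicate 3 (0.16 each). Tm7sf2, a sterol reductase whose step Lbr can also carry out, had no call with FAC (log2 0.03) and fell by 0.34 with Lip-1 and 0.31 with MT before FAC (log2, edgeR adjusted p = 0.00205 and 0.00393).

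Expressed per transcript length as TPM, Sqle had the highest control level of the synthesis genes at 274.8 ± 3.84 (SD, n = 3) and Fdps the lowest at 7.29 ± 1.93 (SD, n = 3). Exons shared with Gm43738 on the same strand make up 26.7% of the length of Fdps, and such reads are not counted. Cyp51 followed Sqle at 185.7 ± 2.96 TPM (SD, n = 3) and Sc5d at 175.7 ± 7.33 (SD, n = 3), ranges that touched when the spread was considered. With Lip-1 before FAC, Cyp51 reached 306.0 ± 17.6 TPM and Sqle 306.8 ± 24.3 TPM (SD, n = 3), which did not differ beyond their spread.

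**Figure D2:**
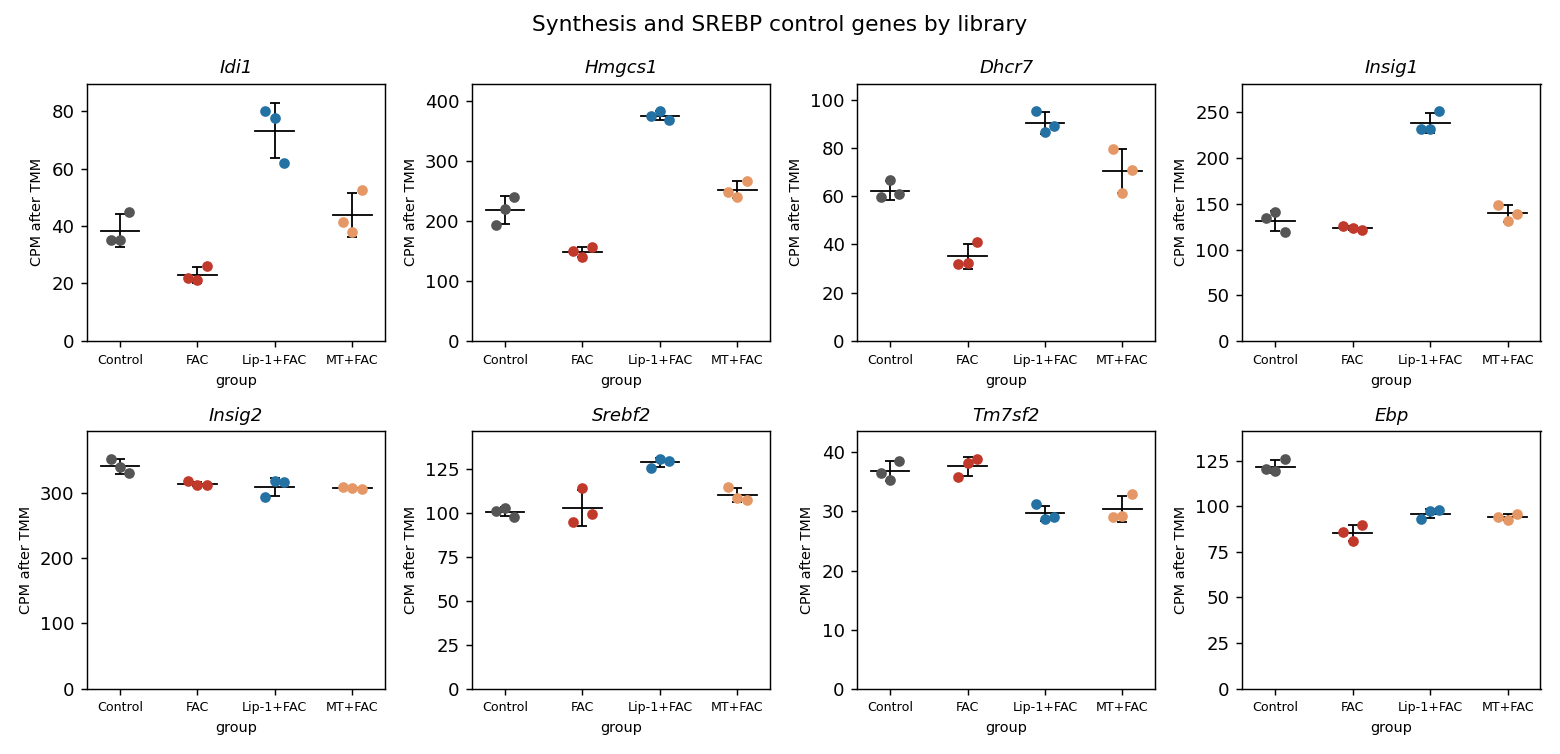
Level in CPM after TMM scaling (y axis, from 0) of 8 synthesis and SREBP control genes in the 4 groups (x axis); points are libraries, horizontal lines are means and bars are SD over 3 libraries. Idi1, Hmgcs1 and Dhcr7 are lowest in FAC and highest in Lip-1+FAC, Insig1 stands out in Lip-1+FAC (232.1 to 251.4 CPM), and Insig2 and Ebp do not follow that order.

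Insig1 had a higher level in every Lip-1+FAC library than in any library of the other groups. Insig1 retains the SREBP2 and Scap complex and is itself a target of SREBP2. Its libraries measured 134.6, 140.8 and 119.3 CPM in control, 125.2, 123.6 and 121.7 in FAC, 232.4, 232.1 and 251.4 in Lip-1+FAC and 148.9, 131.0 and 139.0 in MT+FAC. Control, FAC and MT+FAC libraries lay between 119.3 and 148.9, and no Lip-1+FAC library came near that range. Insig1 rose 1.93-fold with Lip-1 before FAC (log2 0.95, SE 0.0663, edgeR adjusted p = 8.99e-09), and FAC gave a log2 value of -0.09 (SE 0.0662) that was not called (edgeR adjusted p = 0.305). With MT before FAC it rose by a log2 of 0.18 (edgeR adjusted p = 0.0395), a call that was lost in DESeq2 (adjusted p = 0.06) and without any 1 of the FAC libraries, MT+FAC replicate 1 or MT+FAC replicate 3.

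Insig2, a related retention protein, stayed in a narrow band: 351.4, 338.7 and 329.8 CPM in control, 317.2, 311.0 and 311.5 in FAC, 293.2, 318.4 and 315.6 in Lip-1+FAC and 308.9, 306.4 and 305.8 in MT+FAC libraries. All control libraries were above all others. The log2 fold change with FAC was -0.12 (SE 0.0502, edgeR adjusted p = 0.0758), and those of the scavengers against FAC were -0.02 and -0.03. Per length, Insig2 had a higher level than Insig1 in control libraries (281.8 ± 13.7 against 122.6 ± 13.7 TPM, SD, n = 3) and in FAC libraries (259.0 ± 4.8 against 114.7 ± 2.69 TPM, SD, n = 3). In Lip-1+FAC libraries the levels were 267.3 ± 17 and 231.8 ± 16.3 TPM (SD, n = 3).

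Srebf2 itself measured 100.7, 102.8 and 97.7 CPM in control, 94.6, 114.0 and 99.4 in FAC, 125.5, 130.5 and 129.6 in Lip-1+FAC and 114.3, 108.1 and 107.1 in MT+FAC libraries. The Lip-1+FAC libraries were above all others, and FAC libraries fell on both sides of control. Srebf2 rose 1.25-fold with Lip-1 before FAC (log2 0.32, SE 0.0657, edgeR adjusted p = 0.00078) and had log2 values of 0.03 with FAC and 0.10 with MT before FAC, neither called. The value with MT did pass without FAC replicate 2 (0.18, edgeR adjusted p = 0.0338) and with offsets for GC content and length (0.15, edgeR adjusted p = 0.0439). Scap rose by a log2 of 0.32 with FAC and fell by 0.33 with Lip-1 and 0.26 with MT before FAC. With offsets for GC content and length, the Scap values with FAC and with Lip-1 were 0.17 and -0.18, and its fall with MT was lost without FAC replicate 2, MT+FAC replicate 2 or MT+FAC replicate 3 in turn (-0.21 to -0.23) and with the stranded columns summed (-0.19, edgeR adjusted p = 0.0684). The antisense gene 5830462I19Rik overlaps it, and 68.29% of the stranded reads were kept.

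Among the 3 genes of sterol transport, Stard4, which carries cholesterol through the cytosol, rose by a log2 of 0.39 (SE 0.0959, edgeR adjusted p = 0.00381) with Lip-1 before FAC. Its values with FAC and with MT before FAC were -0.11 and -0.04, neither called. Npc1, which passes cholesterol out of the lysosome, rose by 0.44 with FAC (log2, SE 0.0936, edgeR adjusted p = 0.00131) and fell by 0.34 with MT before FAC. The rise was 0.29 with offsets for GC content and length. The fall was 0.22 in size (log2 -0.22) with the stranded columns summed, and Npc1 kept 69.3% of its stranded reads because antisense genes overlap it. Npc2, its partner inside the lysosome, was not called in these comparisons, with log2 values of -0.08, 0.02 and -0.11.

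Of the LXR-driven genes, Abca1 had enough reads to be measured closely. Abca1, which loads cholesterol onto apolipoprotein A-I, measured 57.6, 61.6 and 45.3 CPM in control, 50.1, 51.5 and 50 in FAC, 36.7, 42.4 and 47.5 in Lip-1+FAC and 55.8, 53.0 and 41.9 in MT+FAC libraries. The FAC libraries fell inside the control range, the Lip-1+FAC libraries were all below the FAC libraries, and the MT+FAC libraries spread over both. The log2 fold change of Abca1 was -0.12 with FAC (SE 0.123, edgeR adjusted p = 0.495), -0.26 with Lip-1 before FAC (SE 0.124, edgeR adjusted p = 0.108) and -0.01 with MT before FAC (SE 0.123, edgeR adjusted p = 0.973). None of these was called. The value with Lip-1 before FAC did pass under a few other settings, among them a fit of the compared libraries only (adjusted p = 0.0303) and offsets for GC content and length (log2 -0.31, adjusted p = 0.0147), and without control replicate 3 (adjusted p = 0.0484). Under those offsets its value with FAC was -0.25 (adjusted p = 0.0452).

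Against control, Abca1 fell by 0.38 in Lip-1+FAC libraries (log2, SE 0.124, edgeR adjusted p = 0.0321), although 1 control library lay inside their range. That call was lost without control replicate 1 (-0.34), control replicate 2 (-0.28), FAC replicate 1 (-0.37), Lip-1+FAC replicate 1 (-0.28) or Lip-1+FAC replicate 2 (-0.38), in a fit of the compared libraries only (-0.38) and with reads thinned to the lowest total (-0.34). With offsets for GC content and length the value was larger (-0.55, edgeR adjusted p = 0.00023). Under those offsets Abca1 also passed as lower in MT+FAC against control (-0.29, edgeR adjusted p = 0.043). Abca1 lies on chromosome 4 (GRCm38, 53030787 to 53159895, minus strand). Its promoter (GRCm38.p6, chr4:53159846-53160145, minus strand) is printed because LXR is known to act on Abca1 through a direct repeat of AGGTCA-like units with 4 bases between them. Capitals mark the only such match found in a member, at position -67 on the strand opposite to the one printed. In it the first base of both units and the fifth base of the first unit were left free.
Abca1: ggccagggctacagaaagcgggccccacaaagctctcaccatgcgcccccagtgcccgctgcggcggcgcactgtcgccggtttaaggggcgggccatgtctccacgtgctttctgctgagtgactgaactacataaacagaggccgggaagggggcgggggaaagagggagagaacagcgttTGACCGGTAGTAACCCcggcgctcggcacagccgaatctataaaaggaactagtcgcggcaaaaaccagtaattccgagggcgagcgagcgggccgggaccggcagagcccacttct
This form of the repeat was chosen after the sequences had been seen.

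Abcg1, an exporter to lipoprotein particles, and Mylip were near the limit of detection. Abcg1 had 8, 17 and 4 reads in control, 15, 19 and 16 in FAC, 7, 8 and 5 in Lip-1+FAC and 7, 10 and 11 in MT+FAC libraries. In CPM this was 0.342, 0.638 and 0.158 in control, 0.548, 0.364 and 0.646 in FAC, 0.255, 0.286 and 0.211 in Lip-1+FAC and 0.219, 0.319 and 0.475 in MT+FAC. Only the FAC and Lip-1+FAC ranges were apart. Mylip had 7, 7 and 15 reads in control, 22, 18 and 10 in FAC, 8, 5 and 9 in Lip-1+FAC and 19, 32 and 12 in MT+FAC libraries, which is 0.299, 0.263 and 0.592, then 0.804, 0.345 and 0.404, then 0.291, 0.179 and 0.381, and last 0.594, 1.02 and 0.518 CPM. The MT+FAC libraries of Mylip were above the Lip-1+FAC libraries and the other ranges overlapped. The log2 values with Lip-1 before FAC were -0.99 (SE 0.536) for Abcg1 and -0.84 (SE 0.528) for Mylip, with edgeR adjusted p of 0.152 and 0.219. Standard errors for this pair were 0.47 to 0.567 over all comparisons, against 0.144 for Idi1 with FAC, so its values were the less precise.

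Of the receptors, Nr1h3 fell with FAC in every setting, whereas the rise of Nr1h2 depended on the setting. Nr1h3 (LXR-alpha, the main form in liver) measured 50.2, 54.9 and 50.4 CPM in control, 29.5, 33.0 and 31.5 in FAC, 36.9, 41.0 and 38.7 in Lip-1+FAC and 41.5, 46.9 and 47.7 in MT+FAC libraries. All 4 groups were apart, in the order FAC, Lip-1+FAC, MT+FAC and control. Nr1h3 fell to 0.605 of control with FAC (log2 -0.73, SE 0.0782, edgeR adjusted p = 1.36e-06) and rose by a log2 of 0.31 with Lip-1 and 0.53 with MT before FAC. The difference between the scavengers, 0.22 higher with MT (log2, SE 0.0779), was not called (edgeR adjusted p = 0.19). Nr1h2 (LXR-beta, the form found in most tissues) rose by 0.23 with FAC (edgeR adjusted p = 0.0299) and fell by 0.40 with Lip-1 and 0.37 with MT before FAC (log2). Its rise with FAC was lost without control replicate 1 (0.16), control replicate 2 (0.23), FAC replicate 2 (0.15) or FAC replicate 3 (0.23). With offsets for GC content and length the 3 values were 0.12, -0.17 and -0.21, and the calls with FAC (edgeR adjusted p = 0.185) and with Lip-1 (edgeR adjusted p = 0.0544) were lost.

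**Figure D3:**
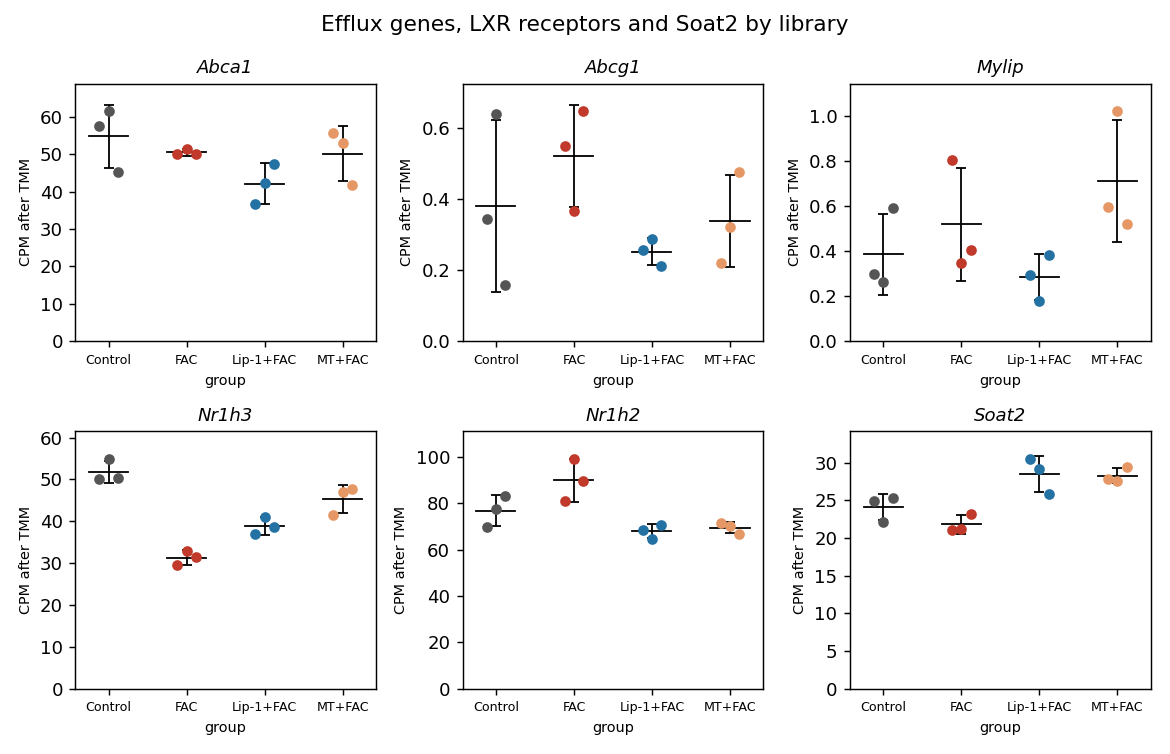
Level in CPM after TMM scaling (y axis, from 0) of the LXR-driven genes, the LXR receptors and Soat2 in the 4 groups (x axis); points are libraries, horizontal lines are means and bars are SD over 3 libraries. Nr1h3 is lowest in FAC (29.5 to 33.0 CPM), Abca1 groups overlap in part, and Abcg1 and Mylip lie at or below 1.02 CPM.

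Of the enzymes that store cholesterol as esters, Soat2, the hepatocyte form, rose with Lip-1 and with MT before FAC by a log2 of 0.39 (SE 0.0891, edgeR adjusted p = 0.00212) and 0.38 (SE 0.0889, edgeR adjusted p = 0.00259). With FAC its value was -0.15 (edgeR adjusted p = 0.214). Soat1, the form of macrophages and other cells, had 7 to 31 reads per library and no call.

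Comparing the scavengers directly asked whether the members differed between Lip-1 and MT when both were followed by FAC. In MT+FAC against Lip-1+FAC, 11 of the 33 genes were lower and none higher, while 0.879% of all genes tested were called lower and 0.465% higher. By unadjusted edgeR p under 0.05, 2 were higher, Mylip and Nr1h3, and DESeq2 called 0 higher. Of the 11, 9 were synthesis genes: Acat2, Hmgcs1, Idi1, Fdft1, Cyp51, Msmo1, Nsdhl, Hsd17b7 and Sc5d. Of the called genes, Insig1 had the largest difference at a log2 of -0.77 (SE 0.0661, edgeR adjusted p = 1.23e-05), followed by Idi1 at -0.74 (SE 0.139, edgeR adjusted p = 0.0191) and Hmgcs1 at -0.58 (SE 0.0706, edgeR adjusted p = 0.000313). Stard4 was the remaining one at -0.43 (SE 0.0963, edgeR adjusted p = 0.0337). Over the 19 synthesis genes the median was -0.37, against 0.00205 over all genes tested.

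The other 10 synthesis genes were not called in MT+FAC against Lip-1+FAC. Mvd, Fdps, Sqle, Lss and Dhcr7 had log2 values of -0.42, -0.50, -0.21, -0.22 and -0.36 (edgeR adjusted p = 0.0724, 0.141, 0.0699, 0.0676 and 0.0919). Pmvk had a difference of -0.29 (edgeR adjusted p = 0.368), and Mvk, Ggps1, Tm7sf2 and Ebp had -0.12, -0.08, 0.03 and -0.03. Of the LXR-driven genes, Mylip had a log2 value of 1.34 (SE 0.515, edgeR adjusted p = 0.242), with every MT+FAC library above every Lip-1+FAC library. Abca1 and Abcg1 had log2 values of 0.25 (SE 0.124, edgeR adjusted p = 0.402) and 0.38 (SE 0.567, edgeR adjusted p = 0.846). The number called was 7 without MT+FAC replicate 2 and 15 with DESeq2. The call for Stard4 was lost without each Lip-1+FAC or MT+FAC library in turn, that for Idi1 without Lip-1+FAC replicate 1 (-0.68) or replicate 2 (-0.70) or MT+FAC replicate 1 (-0.70) or replicate 2 (-0.66), that for Hsd17b7 without Lip-1+FAC replicate 2 or replicate 3 or MT+FAC replicate 1 or replicate 2 (-0.28 to -0.34), and that for Acat2 without Lip-1+FAC replicate 1 (-0.34) or MT+FAC replicate 2 (-0.33).

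**Figure D4:**
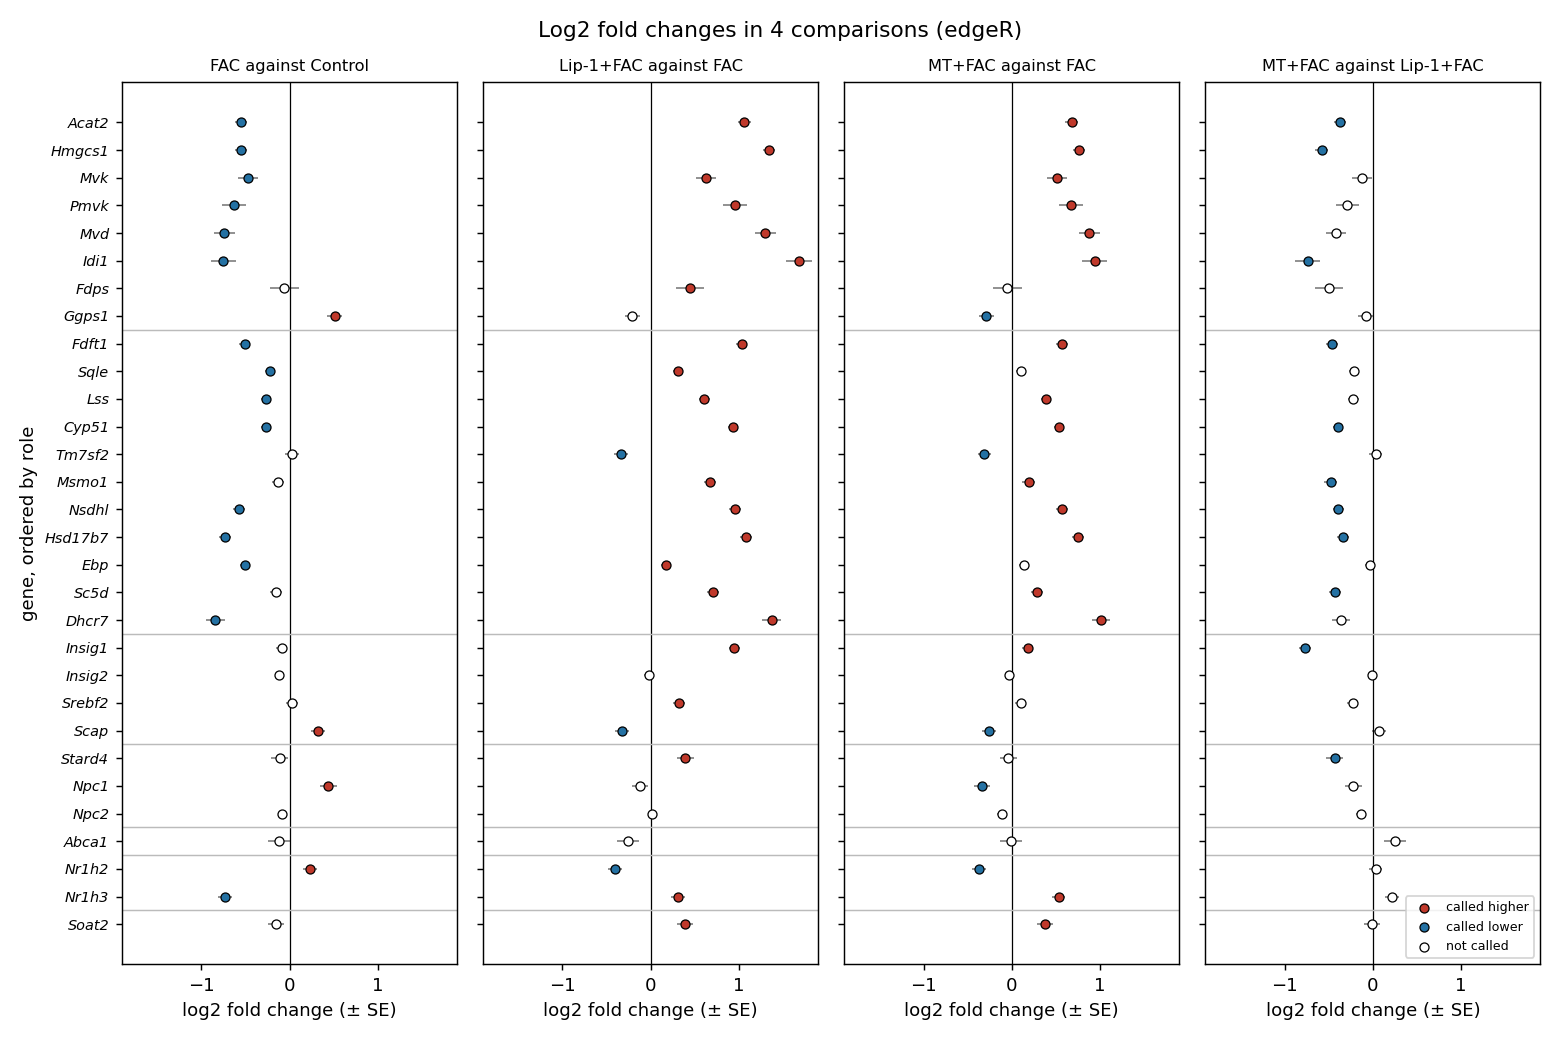
Log2 fold changes (x axis) of 30 genes (y axis, ordered by role) in 4 comparisons, one per panel, with bars of 1 standard error; red points were called higher, blue points lower and white points were not called by edgeR. Synthesis genes lie mostly left of 0 with FAC, right of 0 with either scavenger before FAC, and left of 0 in MT+FAC against Lip-1+FAC; Abcg1, Mylip and Soat1 are left out because of their low counts.

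Set against untreated cells, most of the synthesis genes were higher in Lip-1+FAC libraries. In Lip-1+FAC against control, 13 of 19 synthesis genes were higher and 2 lower (median 0.40), and over the 33 genes 17 were higher and 5 lower, against 15.4% and 14.8% of all genes tested. Pmvk (0.33) and Fdps (0.40), not called here, passed in DESeq2 (0.34 and 0.41, adjusted p = 0.0486 and 0.0453), with reads thinned to the lowest total (0.35 and 0.43) and without control replicate 3 (0.48 and 0.64), and Pmvk was at 0.55 with offsets for GC content and length (edgeR adjusted p = 0.00259). Soat2 (0.24, edgeR adjusted p = 0.0511) passed in 9 of the 23 alternatives, with 0.25 in DESeq2 (adjusted p = 0.0258) and 0.39 with those offsets (edgeR adjusted p = 0.00104). The largest of these was Idi1 at a log2 of 0.93 (SE 0.14, edgeR adjusted p = 0.000215), with Insig1 at 0.86 and Hmgcs1 at 0.79. Those that were lower were Tm7sf2, Ebp, Insig2, Abca1 and Nr1h3 (log2 -0.31, -0.34, -0.14, -0.38 and -0.42). The call for Insig2 was lost in 18 of the 23 alternatives. With offsets for GC content and length the values of Nr1h3, Lss and Npc1 were -0.27, 0.17 and 0.12, against -0.42, 0.35 and 0.31 without them, and the call for Npc1 was lost (edgeR adjusted p = 0.281). Npc1 also lost its call without control replicate 1, control replicate 3 or Lip-1+FAC replicate 3 (0.25 to 0.28), Stard4 in 8 of the 23 alternatives (0.18 to 0.30), and Ggps1 in 2.

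In MT+FAC against control, 2 of the 33 genes were higher and 4 lower, against 9.71% and 10.1% of all genes tested, so the number called was near the background and is no result about the members. Hmgcs1 (log2 0.21, edgeR adjusted p = 0.0445) and Cyp51 (0.26, edgeR adjusted p = 0.00145) were the higher ones. Tm7sf2, Ebp, Insig2 and Npc2 were the lower ones (log2 -0.28, -0.37, -0.15 and -0.19). The median of the 19 synthesis genes was 0.06. The number called, 6 in all, was 2 without MT+FAC replicate 1, and 3 without control replicate 1, control replicate 3, MT+FAC replicate 2 or MT+FAC replicate 3. Cyp51 and Ebp kept their calls without each library in turn, and the other 4 did not, with Hmgcs1 at 0.13 without control replicate 1. In both of these comparisons FAC and the scavenger change together.

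Promoters of 26 of the 33 genes were in the RefSeq table of build GRCm38.p6, and both strands were searched. The element TCACCCCAC was found in Hmgcs1 alone among the members and in 0.551% of all 32851 promoters of that length. The form with a free base and a shorter end, TCACNCCA, was found in Hmgcs1, Msmo1 and Srebf2, at position -162 in the last, and in 4.36% of all promoters. For synthesis genes and Insig1, 20 promoters of 17 genes were listed, so some genes count more than once. CCAAT, bound by the factor NF-Y, which is known to act beside SREBP2, was found in 80.0% of the 20. The shares were 37.4% of all promoters and 37.9% of those of genes tested. GGGCGG, the GC box bound by Sp1, was found in 80.0% of the 20, against 35.7% and 60.6%. The direct repeat of AGGTCA with 4 bases between was in no member, nor was the form with the units AGGTNA and NGGTCA, which 0.0152% and 0.0883% of all promoters held. The added form with the units NGGTNA and NGGTCA, found in Abca1, was in 0.207% of all promoters. These are matches of letters within 300 bases, and nothing was measured on binding.

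A further 46 genes of the pathway were listed by role, of which 45 were tested. With FAC 5 rose and 14 fell, with Lip-1 before FAC 15 rose and 7 fell, with MT before FAC 17 rose and 4 fell, and in MT+FAC against Lip-1+FAC edgeR called none. The shares among all genes tested were 17.5% higher and 19.1% lower with FAC, 20.7% and 19.2% with Lip-1, 21.2% and 19.7% with MT, and 0.465% and 0.879% between the scavengers. Several counts of the smaller lists, such as 1 of 5 or 1 of 8, lie near these shares and say nothing particular about the list. By unadjusted edgeR p under 0.05, 4 were higher and 4 lower there, and DESeq2 called 2 lower. Of 8 genes of SREBP processing and enzyme turnover 4 rose and 1 fell with Lip-1, led by Mbtps1, the protease that makes the first cut in SREBP2 (log2 0.54, and -0.29 with FAC). Both listed sterol steps rose with Lip-1, Erg28, a scaffold of the demethylation enzymes, by 0.91 after a value of -0.80 with FAC. Of 14 genes that use mevalonate for other products 1 rose and 4 fell with Lip-1, with the largest change in Fntb, a subunit of the enzyme that farnesylates proteins (log2 -0.56).

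Of 5 genes of lipoprotein uptake and lysosomal release 1 rose and 2 fell with Lip-1. Lipa, the lysosomal lipase that frees cholesterol from its esters, measured 160.8, 186.1 and 151.6 CPM in control, 111.9, 105.3 and 116.0 in FAC, 267.9, 232.1 and 274.0 in Lip-1+FAC and 228.6, 195.2 and 197.3 in MT+FAC libraries. Its 4 groups did not overlap, in the order FAC, control, MT+FAC and Lip-1+FAC, and Lipa rose by a log2 of 1.22 with Lip-1 and 0.90 with MT before FAC (edgeR adjusted p = 1.86e-08 and 5.56e-07). Of 8 tested genes of sterol transport between membranes 4 rose with Lip-1, led by Gramd1c (log2 0.80). Of 8 LXR targets and partners 3 fell with FAC and 3 rose with Lip-1 before FAC. One of the 8, Pltp, overlaps the antisense gene Ctsa and kept 4.83% of its stranded reads, so its counts are uncertain.

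Abcg5, which with Abcg8 forms the pump that secretes sterols into bile, measured 10.1, 10.8 and 10.6 CPM in control, 6.5, 5.27 and 4.52 in FAC, 10.7, 11.9 and 10.9 in Lip-1+FAC and 11.5, 8.82 and 8.03 in MT+FAC libraries. Its FAC libraries were below all others. Abcg5 fell by 0.95 with FAC (log2, SE 0.152, edgeR adjusted p = 9.2e-05) and rose by a log2 of 1.04 with Lip-1 and 0.80 with MT before FAC. Abcg8, named here after its values were seen, fell by 0.78 with FAC and rose by 0.38 and 0.40 (log2). This pair of LXR targets was called with FAC and with either scavenger before FAC, where Abca1 was not. In MT+FAC against Lip-1+FAC neither the pair nor Abca1 was called by edgeR. The difference between the pair and Abca1 was not tested.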

How the data were processed

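RNA was measured in 12 libraries of cultured mouse hepatocytes, 3 in each of 4 groups, as the sample titles group them. Per the labels' protocols, cDNA was made from total RNA with a SMART-Seq kit, which amplifies by PCR, and read in pairs on a NovaSeq instrument, with no molecular identifiers mentioned. The authors deposited whole-number read counts per gene, not normalized, in the layout of STAR, aligned to GRCm38 per the submitters' processing notes. The version and the annotation are not given in the sources used here. Multimapping reads are not counted for a gene in this layout. Reads assigned to genes were 75.81% to 81.17% of those listed, and lines that name no gene stayed out of library sizes and tests. The unstranded column was used, because the kit does not mark strand.

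Identifiers were matched to GENCODE M21 (55141 of 55487), which gave names, positions and lengths. The quasi-likelihood test of edgeR 4.0.16 in R 4.3.3 was fitted to 13535 genes kept by filterByExpr, with TMM scaling, robust dispersions and 4 group means over all libraries, and two-sided p-values were adjusted by Benjamini-Hochberg over all genes tested. CPM and TPM were computed from the counts. Copies at 95% identity over at least 200 bases were searched with blastn 2.17.0. The script was tested on simulated data.

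The members, lists, tests and alternatives were chosen with earlier results of these data known. Genes given in full were the 3 efflux genes, Insig1, Insig2, Srebf2, the 5 synthesis genes with the largest change in Lip-1+FAC against FAC, and members called with a log2 change of at least 0.5 in FAC against control or MT+FAC against Lip-1+FAC. Of each further list, the gene with the largest called change in Lip-1+FAC against FAC was named. Alternatives changed the scaling, the low-count filter, the tool (DESeq2 1.42.0), the libraries fitted, depth, counting columns, offsets for GC content and length, the replicate block and each library in turn. Libraries were not paired by replicate number in the main fit. The correlations between libraries of the same number, given below, cannot exclude a weak pairing.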

Additional observations from a re-analysis of the deposited data

How the results depend on the processing

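Each comparison was recomputed under 23 alternatives, 12 of which leave out 1 library, and no member that was called changed its direction in any of them. The number of members called in FAC against control ranged from 18 to 20 around 19, in Lip-1+FAC against FAC from 23 to 26 around 25, and in MT+FAC against FAC from 18 to 23 around 22. In MT+FAC against Lip-1+FAC it was 11 and ranged from 7 to 12 when a library was left out and from 11 to 15 otherwise. In Lip-1+FAC against control it was 22 and ranged from 18 to 25. In MT+FAC against control it was 6 and ranged from 2 to 5 when a library was left out, and from 4 to 8 otherwise. Of the called members, 18 of 19, 22 of 25, 18 of 22, 7 of 11, 17 of 22 and 2 of 6 kept their call in every setting, in the order FAC against control, Lip-1+FAC against FAC, MT+FAC against FAC, MT+FAC against Lip-1+FAC, Lip-1+FAC against control and MT+FAC against control. The cause of the lost calls was not tested, beyond fewer libraries where 1 was left out. The synthesis median lay between 0.85 and 0.97 in Lip-1+FAC against FAC and between -0.55 and -0.47 in FAC against control.

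Libraries that share a replicate number had correlations of -0.249 to 0.164, over 0.1 in 3 of 18 pairs, and 4 of 12 libraries correlated best with one of their own number. With the replicate number as a block, 20, 25, 21, 11, 23 and 5 members were called, in the order above. Depth limits Abcg1, Mylip and Soat1, which had at most 32 reads in a library.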
